A study of Mus musculus with 4 samples.

Results

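The 6 genes described here belong to antigen presentation by the major histocompatibility complex (MHC) and were taken by name from a panel of 383 genes. B2m, H2-K1, H2-T23 and Tapbp are the 4 class I members, and Cd74 and H2-Eb1 are the 2 class II members. All 6 were found in each of the 4 sections. The data are MERFISH, a form of multiplexed single-molecule hybridization, an imaging method that decodes single transcripts in tissue and assigns them to segmented cells. Coronal sections through the striatum came from wild-type C57BL/6NTac mice, 2 from young mice of 2 months and 2 from aged mice of 18 months. The labels give no treatment for either group, and the brains were frozen in embedding medium before sectioning. The study's methods call its replicates biological, but the labels tie no section to an animal, so p-values here measure the spread between sections. Numbers inside the data of the 2 young sections differ from their titles, and the titles were followed.

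Class I molecules show peptides from inside a cell to CD8+ T cells and are made by most cell types, but at low levels by resting neurons. B2m encodes the invariant light chain, H2-K1 a classical heavy chain, H2-T23 the heavy chain of the non-classical molecule Qa-1, and Tapbp the chaperone tapasin, which holds empty class I molecules at the peptide transporter. Class II molecules show peptides from endocytosed proteins to CD4+ T cells and are typical of professional antigen-presenting cells. H2-Eb1 encodes a class II beta chain, and Cd74 encodes the invariant chain that guards the class II groove during transport. In the brain, macrophages of the meninges, the perivascular space and the choroid plexus are the best known class II bearers, while resting microglia carry little.

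The genes lie at 3 places in the mouse genome (GRCm38, GENCODE vM21). H2-K1 (chromosome 17, 33996017 to 34000347, minus strand), H2-T23 (chromosome 17, 36029773 to 36032855, minus strand), Tapbp (chromosome 17, 33915899 to 33929292, plus strand) and H2-Eb1 (chromosome 17, 34305867 to 34316674, plus strand) share the MHC region. B2m lies on chromosome 2, from 122147686 to 122153083 on the plus strand. Cd74 lies on a chromosome of its own. All 6 are annotated as protein coding. The class I heavy chains H2-K1, H2-T23 and H2-D1 are close paralogs. The probe sequences were not analysed here, so a part of the signal of each may come from a related gene.

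The 250 bases before the RefSeq start site are shown for B2m, H2-K1 and H2-Eb1, whose levels parted the cell classes most clearly among the 5 members with a window. Capitals mark 3 motifs searched on both strands: CCAAT (the Y box of MHC promoters holds it), TGACG (the core of the cyclic AMP response element) and a pair of GAAA tetramers with 2 bases between them (an interferon response-like repeat). Sequences are 5′ to 3′ on the strand of the gene, from RefSeq on GRCm38.p6. Windows were taken by symbol for 5 of the 6 genes, and the chromosome of Cd74 was left out of this search. H2-K1 has 2 start sites there, and the window of the first listed is shown.
B2m, chr2:122147437-122147686, plus strand: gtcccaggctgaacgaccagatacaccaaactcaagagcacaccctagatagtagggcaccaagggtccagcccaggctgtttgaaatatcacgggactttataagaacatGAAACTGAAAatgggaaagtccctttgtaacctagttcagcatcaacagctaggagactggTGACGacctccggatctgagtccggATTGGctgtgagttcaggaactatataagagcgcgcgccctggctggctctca
H2-K1, chr17:34000348-34000597, minus strand: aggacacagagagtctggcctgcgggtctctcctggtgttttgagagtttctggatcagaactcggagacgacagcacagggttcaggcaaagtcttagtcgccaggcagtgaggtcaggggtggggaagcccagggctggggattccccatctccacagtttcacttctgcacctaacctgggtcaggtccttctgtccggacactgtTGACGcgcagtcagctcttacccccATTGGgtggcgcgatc
H2-Eb1, chr17:34305617-34305866, plus strand: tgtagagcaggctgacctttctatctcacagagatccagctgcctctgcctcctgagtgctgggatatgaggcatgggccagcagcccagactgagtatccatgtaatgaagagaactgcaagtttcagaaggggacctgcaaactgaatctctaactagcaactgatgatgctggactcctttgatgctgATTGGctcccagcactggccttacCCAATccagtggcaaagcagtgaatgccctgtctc
Each of these windows held CCAAT or its complement ATTGG, which 33.8% of 32851 promoter windows of this length also held. TGACG stood before B2m and H2-K1 and was in 17.8% of all windows. The GAAA repeat stood before B2m and, in the reverse direction, before H2-T23, and was in 2.98% of all windows. A match of letters is a description and not a bound site.

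Between 68011 and 74624 cells per section passed the filters, with 18765491 to 36035355 transcripts per section. The median kept cell held 215 to 400 transcripts, with the lowest median in aged section 1 and the highest in young section 1. Cells were grouped by clustering without the 6 genes, and clusters were named from marker lists. Cells with at least 3 markers of another cell family, called mixed here, were left out of the class levels. This kept 761 to 933 of 2523 to 2845 microglia-like cells per section, and their median depth fell from 130 to 240 transcripts to 57 to 94. Of neuron-like cells it kept 7484 of 20687 in young section 1 and 11467 of 21987 in aged section 1. The rule thus removed mostly deep cells, and to a different degree in each section. The border macrophage-like class was a subcluster of the vascular cluster with 307 unmixed cells, 68 to 90 per section. All 5 of its markers (Mrc1, Pf4, Ms4a7, Dab2 and Lyz2) were raised, and they summed to 337 to 527 transcripts per 10000, against 13.6 to 19.9 in microglia-like cells. Astrocyte markers also summed to 280 to 853 in these cells and to 1935 to 2511 in fibroblast-like cells, against 70.9 to 120 in microglia-like cells, and the part of neighbouring astrocytes in the levels of both classes was not tested. Fibroblast markers summed to only 226 to 279 in fibroblast-like cells, below their astrocyte markers, and to 2.29 to 3.51 in astrocyte-like cells. The microglia-like class held 761 to 933 unmixed cells per section, and its 7 markers summed to 3096 to 3440 transcripts per 10000. Probe sets differ between genes, so levels are compared between cell classes and sections and not between genes.

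Class I transcripts were found in every class but at very unequal levels. B2m was highest in border macrophage-like cells, where it reached 127 and 141 transcripts per 10000 in the young sections, against 156 and 141 in the aged sections. Microglia-like cells followed with 43.7 and 69.2 in the young and 75.6 and 69.9 in the aged sections. Endothelial-like cells held 50.3 and 62.3 in the young and 75.4 and 64.5 in the aged sections. Averaged over the 4 sections, B2m stood at 64.6 ± 14.2 in microglia-like, 63.1 ± 10.3 in endothelial-like and 61.4 ± 5.54 in Acta2-rich vascular cells (SD, n = 4), and these neighbours overlapped. Fibroblast-like cells held 47.2 ± 11.4 and mural-like cells 31.3 ± 5.10. Oligodendrocyte precursor (OPC)-like cells came next with 15.5 ± 3.98 and astrocyte-like cells with 9.74 ± 1.95. The lowest levels lay in medium spiny neuron-like cells at 5.94 ± 2.45, oligodendrocyte-like cells at 5.72 ± 1.41 and neuron-like cells at 4.81 ± 0.988, again with overlapping ranges (SD, n = 4). Section ranges of neighbouring classes parted at 3 steps, below border macrophage-like, fibroblast-like and mural-like cells.

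H2-K1 was also highest in border macrophage-like cells, but microglia-like cells stood lower in its order. In border macrophage-like cells it measured 164 and 113 in the young and 90.0 and 92.6 per 10000 in the aged sections. In endothelial-like cells it measured 38.7 and 35.7 in the young and 38.4 and 42.1 in the aged sections, which is a narrow range. Acta2-rich vascular cells, an unnamed cluster led by Acta2, Mgp and Myl9, held 33.7 ± 5.08 and overlapped with endothelial-like cells (SD, n = 4). Microglia-like cells held only 17.4 ± 4.64, and no section of theirs reached the lowest Acta2-rich section. Mural-like cells held 15.7 ± 1.04, fibroblast-like cells 13.5 ± 0.387 and astrocyte-like cells 9.87 ± 0.354. Oligodendrocyte-like cells held 2.03 ± 0.266, neuron-like cells 1.498 ± 0.357 and medium spiny neuron-like cells 1.41 ± 0.242 (SD, n = 4). Astrocyte-like cells thus lay well above oligodendrocyte-like cells for H2-K1, without overlap. Endothelial markers summed to 153 to 173 per 10000 in astrocyte-like and 6.21 to 8.91 in oligodendrocyte-like cells, against 1149 to 1223 in endothelial-like cells. The part of endothelial transcripts in the H2-K1 level of astrocyte-like cells was not tested.

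H2-T23 and Tapbp were dim, and their levels parted the classes far less. H2-T23 averaged 1.63 ± 0.622 per 10000 in endothelial-like, 1.52 ± 0.621 in microglia-like, 0.922 ± 0.271 in neuron-like and 0.357 ± 0.186 in astrocyte-like cells (SD, n = 4). Each class of H2-T23 overlapped with its next neighbour in the order. Border macrophage-like cells had 0 to 4 transcripts of H2-T23 per section, so their level of 3.73 ± 2.55 rests on very few molecules, and the 0 in aged section 1 allows up to 3 counts. Tapbp averaged 5.10 ± 1.89 in Acta2-rich, 4.46 ± 1.43 in endothelial-like, 3.67 ± 0.723 in microglia-like and 1.83 ± 0.231 in neuron-like cells. Its lowest level was 0.821 ± 0.185, in oligodendrocyte-like cells (SD, n = 4). Neuroblast-like cells, with 46 and 50 cells in the aged sections, held 0 to 13 transcripts of each of the 6 genes per section and were not placed.

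Class II levels were highest in the border macrophage-like class. Cd74 (chromosome 18, 60803848 to 60812652, plus strand) measured 954 and 325 per 10000 in the young sections, against 251 and 227 in the aged sections of these cells. Fibroblast-like cells came next, with 9.05 and 12.7 in the young and 17.7 and 19.4 in the aged sections. These cells held more astrocyte than fibroblast marker transcripts. Microglia-like cells held 3.57 and 2.56 in the young and 5.01 and 14.5 in the aged sections. Endothelial-like cells averaged 2.56 ± 1.71, neuron-like cells 0.607 ± 0.0670 and medium spiny neuron-like cells 0.249 ± 0.0625 (SD, n = 4). H2-Eb1 measured 168 and 98.8 in the young and 49.5 and 67.4 in the aged sections of border macrophage-like cells. In fibroblast-like cells it averaged 6.15 ± 3.87, in microglia-like cells 0.900 ± 0.521 and in neuron-like cells 0.310 ± 0.0505 (SD, n = 4). The 20 dimmest other genes of the panel averaged 0.456 ± 0.0676 per gene in neuron-like cells, so H2-Eb1 in neurons was not above the level of the dimmest probes. B2m and H2-K1 in the same cells were above that value in all 4 sections.

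**Figure D1:**
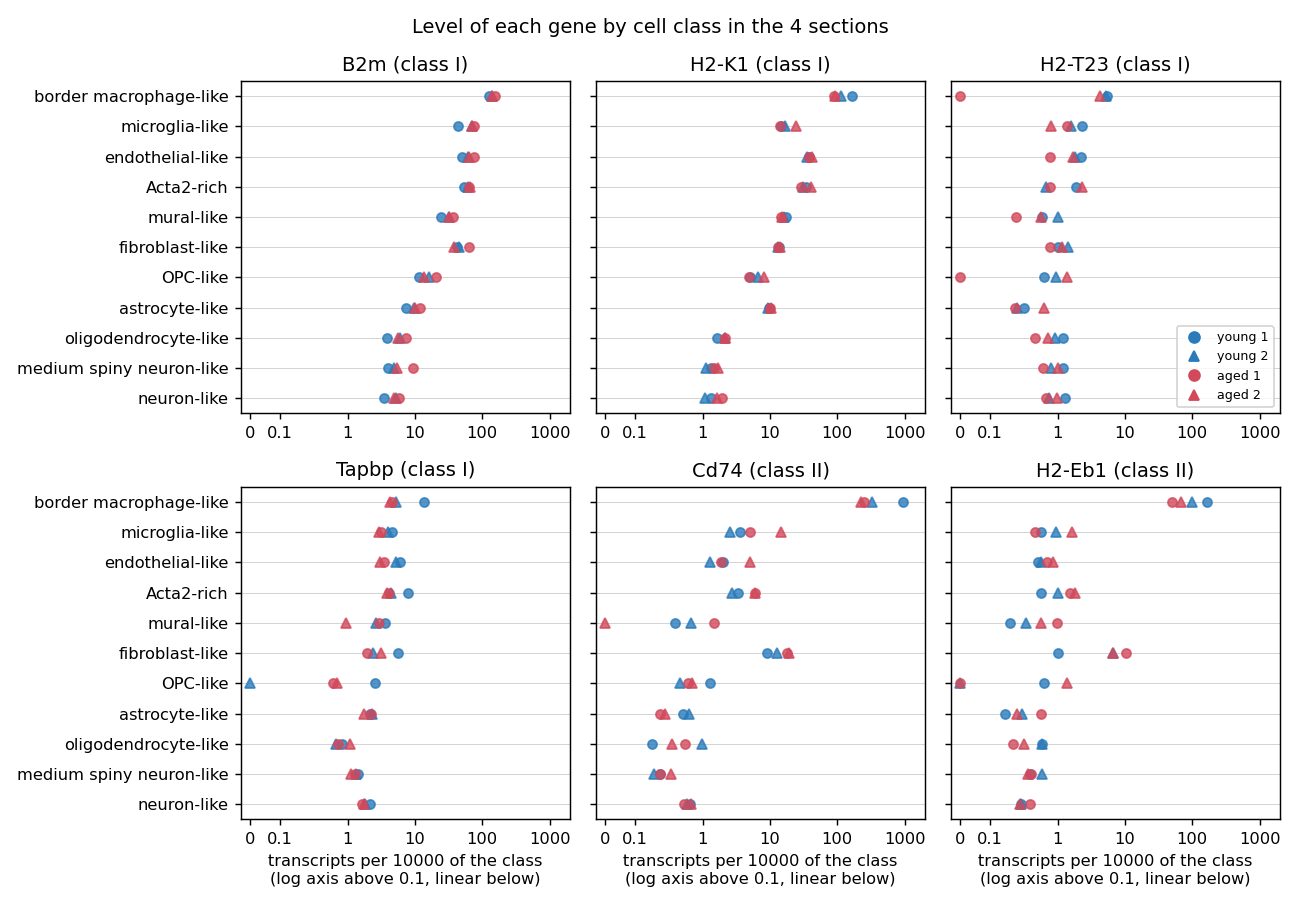
Level of each of the 6 genes in 11 cell classes, in transcripts per 10000 transcripts of the class, with 1 point per section (blue young, red aged; circles section 1, triangles section 2). The axis is logarithmic above 0.1 and linear below, so points at 0 can be shown. Cd74 and H2-Eb1 stand apart in border macrophage-like cells, B2m and H2-K1 fall in steps from macrophage and vascular classes to neurons, and H2-T23 and Tapbp stay within a narrow band.

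The pattern over classes tied the members into pairs. Over 48 combinations of 12 classes and 4 sections, B2m correlated best with H2-K1 (r = 0.895), and Parp9, an interferon-induced gene, was also among its closest (0.835). H2-K1 was closest to H2-D1 (0.902), the other classical heavy chain on the panel, and then to B2m and Parp9 (0.881). Cd74 was closest to H2-Eb1 (0.873), then to the macrophage mannose receptor gene Mrc1 (0.861) and the class II gene H2-Ab1 (0.819). H2-Eb1 was closest to H2-Ab1 (0.890), Cd74 and the lysozyme gene Lyz2 (0.799). The best partners of H2-T23 (Pdgfb, 0.636) and Tapbp (Clec2d, 0.755) were looser. These correlations describe classes that share sections and depth, and no p is given.

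Although border macrophage-like cells were richest per transcript, they made up a small part of the tissue. With mixed cells kept and the vascular cluster divided more finely (resolution 0.6 in place of 0.3), they were 0.422% of cells and 0.283% of all transcripts on average, but held 20.4% of Cd74 (13.5 to 27.6% over sections) and 9.73% of H2-Eb1. Neuron-like cells held 27.6% of Cd74 and 29.8% of H2-Eb1, below their share of 44.9% of all transcripts. Endothelial-like cells held 2.35% of all transcripts, 14.1% of B2m and 19.6% of H2-K1. Microglia-like cells held 2.54% of all transcripts, 9.31% of B2m and 6.24% of H2-K1.

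The direct comparison of border macrophage-like with microglia-like cells, with section as a block, gave 4 of 5 tested members as higher in border macrophage-like cells. Of all 286 genes tested there, 65.7% passed the test and 31.1% passed it as higher in border macrophage-like cells. H2-Eb1 was 68.8-fold higher (log2 6.11 ± 0.40 SE, edgeR adjusted p = 2.09e-07), over a microglia-like level of only 3 to 12 transcripts per section. Per 10000 that level was 0.576 and 0.958 in the young and 0.455 and 1.61 in the aged sections, against 0.310 ± 0.0505 in neuron-like cells. After thinning to 100 transcripts per cell, given below, shares in microglia-like and neuron-like cells overlapped. The value is thus a ratio to a level near background. Cd74 was 48.5-fold higher (log2 5.60 ± 0.58, edgeR adjusted p = 5.28e-06). Both kept their call in each alternative, but their size moved. Cd74 gave log2 4.89 without young section 1 and 6.37 without aged section 2, and H2-Eb1 gave 5.57 without young section 1. With mixed cells kept they were 5.10 and 5.14, and 3.68 and 3.78 with mixed cells kept and subclusters at resolution 0.3. H2-K1 was 4.55-fold higher (log2 2.19 ± 0.26, edgeR adjusted p = 1.83e-05). B2m was 1.53-fold higher (log2 0.62 ± 0.19, edgeR adjusted p = 0.0152), a call that was lost with DESeq2 (adjusted p = 0.0888), without young section 1 (edgeR adjusted p = 0.0827) and without aged section 1 (edgeR adjusted p = 0.0582). Tapbp was tested and did not pass (log2 0.32 ± 0.43, edgeR adjusted p = 0.548; -0.11 without young section 1; 0.77, edgeR adjusted p = 0.00168, with mixed cells kept at resolution 0.3), and H2-T23 was too dim to be tested. The 6 genes were not used to form the classes, whereas most of the other genes tested were. Igkc, an immunoglobulin light chain gene of B and plasma cells, moved with class II: it measured 29.5 to 112 per 10000 in border macrophage-like cells and 0.426 to 1.15 in microglia-like cells. With Cd37, the other gene of the B or plasma cell list, it summed to 61.1 to 194 and 30.2 to 43.6. The part of such cells in the class II signal was not tested.

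Other genes of the pathway divided between the 2 myeloid classes. Of the 5 other antigen presentation genes, 2 were higher in border macrophage-like cells and 3 were lower. H2-Ab1, another class II beta chain gene, was 79.5-fold higher (log2 6.31) and H2-D1 was 5.24-fold higher (log2 2.39). The lysosomal protease genes Ctss (log2 -2.52), Ctsd (log2 -2.69) and Lgmn (log2 -3.21) were lower. Of 12 interferon response genes tested, 3 were higher (Ly6a, log2 2.26; Slfn5, log2 2.14; Tnfsf10, log2 1.07), 2 were lower (Irf8, log2 -2.59; Parp12, log2 -0.63) and 7 did not pass. The median log2 value was -0.20 over all genes tested, against -2.52 and -0.01 over these lists. The microglial activation genes helped to form the classes and are not counted here.

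Single cells showed how uneven class II was within a class. At least 1 Cd74 transcript was seen in 48.5% (exact 95% interval 36.2 to 61.0) and 24.4% (15.4 to 35.4) of border macrophage-like cells of the young and in 22.2% (14.1 to 32.2) and 25.4% (15.8 to 37.1) of those of the aged sections. Intervals cover counting error only. In microglia-like cells the shares were 2.10% (1.21 to 3.39) and 1.72% (0.983 to 2.77) in the young and 2.20% (1.35 to 3.37) and 2.62% (1.69 to 3.87) in the aged sections. Neuron-like cells, taken as a reference, had shares of 2.45, 1.86, 1.24 and 1.80% in the same order. Their median depths were 205 to 297 transcripts per cell, against 57 to 94 in microglia-like cells. To compare at 1 depth, each cell was thinned to 100 transcripts and shallower cells were left out, which kept 237 to 388 microglia-like cells and 15 to 32 border macrophage-like cells per section. The Cd74 share in microglia-like cells was then 1.44 and 1.58% in the young and 2.71 and 3.66% in the aged sections, against 0.423 to 0.641% in neuron-like cells. The aged sections lay above the young ones here (two-sided exact permutation test, p = 0.3333, the smallest that 2 against 2 sections can give). They also did so in endothelial-like cells (1.235 and 1.102% in the young, 1.371 and 2.161% in the aged sections). The same held in oligodendrocyte-like cells (0.1497 and 0.2552%, then 0.3305 and 0.2925%), whereas the ages overlapped in neuron-like cells. H2-Eb1 after thinning was seen in 0.191 to 0.443% of microglia-like cells and 0.292 to 0.373% of neuron-like cells, so a signal in microglia was not detectable above background at this depth. In border macrophage-like cells the thinned shares of Cd74 were 71.5 and 42.0% in the young and 42.8 and 38.7% in the aged sections, and the ages overlapped (two-sided exact permutation test, p = 0.6667). The thinned shares of H2-Eb1 were 59.2 and 35.5% in the young and 30.8 and 20.1% in the aged sections (two-sided exact permutation test, p = 0.3333).

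**Figure D2:**
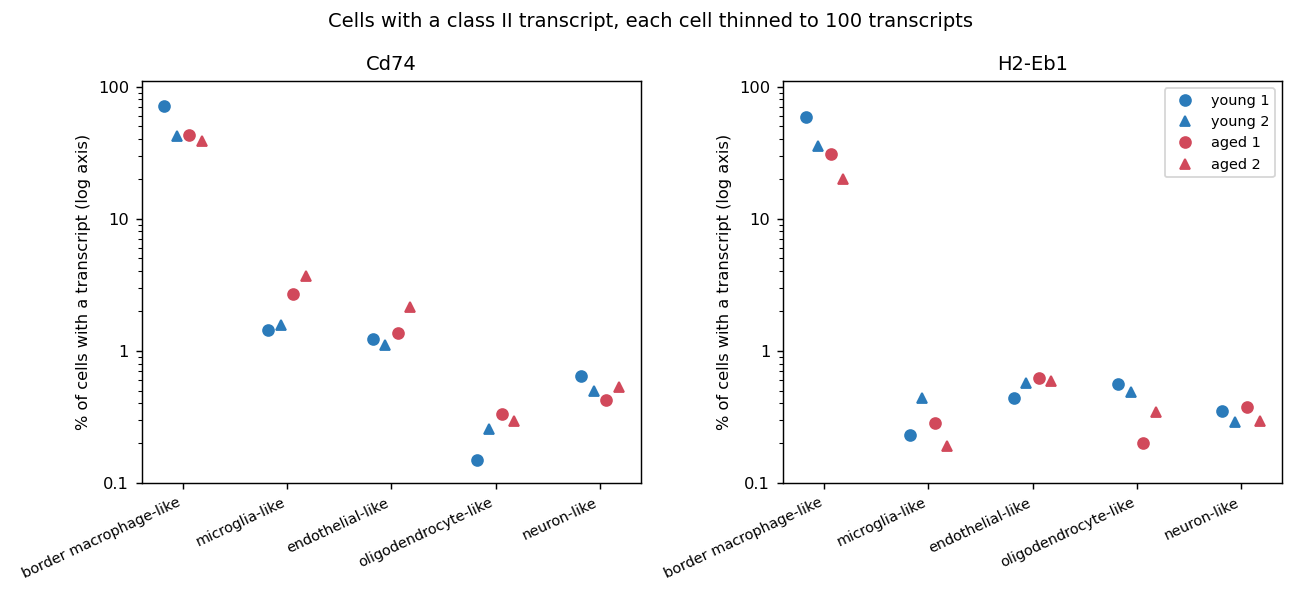
Percent of cells with at least 1 transcript of Cd74 (left) or H2-Eb1 (right) after thinning each cell to 100 transcripts, on a logarithmic axis, with 1 point per section (blue young, red aged). Shares in border macrophage-like cells lie between 20.1 and 71.5%, whereas all other classes shown stay at 3.66% or below. Neuron-like cells are the reference used in the text, and for Cd74 oligodendrocyte-like cells lie lower still.

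Cells with at least 5 Cd74 and 2 H2-Eb1 transcripts were counted as class II rich, mixed cells included. There were 194 such cells among 281824, with 62 and 46 in the young and 36 and 50 in the aged sections. This came to 1.83 and 1.15 per mm2 of tissue in the young and 0.961 and 1.29 in the aged sections, and the ranges overlapped (two-sided exact permutation test, p = 0.667; the smallest possible is 0.3333). Under both alternatives the ages parted (two-sided exact permutation test, p = 0.3333): with at least 10 Cd74 and 3 H2-Eb1 transcripts the densities were 1.298 and 0.725 in the young and 0.480 and 0.669 in the aged sections, and with mixed cells left out they were 0.590 and 0.325 against 0.240 and 0.309. By class, 75 were border macrophage-like, 34 fibroblast-like, 29 in unnamed vascular clusters, 24 endothelial-like and 10 microglia-like, and 7 of these 10 lay in aged section 2. Astrocyte markers summed to 719 to 1101 transcripts per 10000 in these cells, endothelial markers to 214 to 295 and border macrophage markers to 85.1 to 140. Igkc was seen in 32.0% of class II rich cells.

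Class II rich cells were found often near the borders of the tissue. Of the 194 cells, 35.6% lay within 150 µm of the section outline, against 6.66% of all kept cells. The share was 25.8 and 43.5% in the young and 50 and 30% in the aged sections, above the range of 6.20 to 7.32% for all cells in each of them. Of the 307 unmixed border macrophage-like cells, 42.0% lay in this rim, whereas microglia-like cells were there in 9.03%. The striatum held 16.0% of class II rich cells but 30.2% of all kept cells, and white matter held 4.64% against 5.77%.

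**Figure D3:**
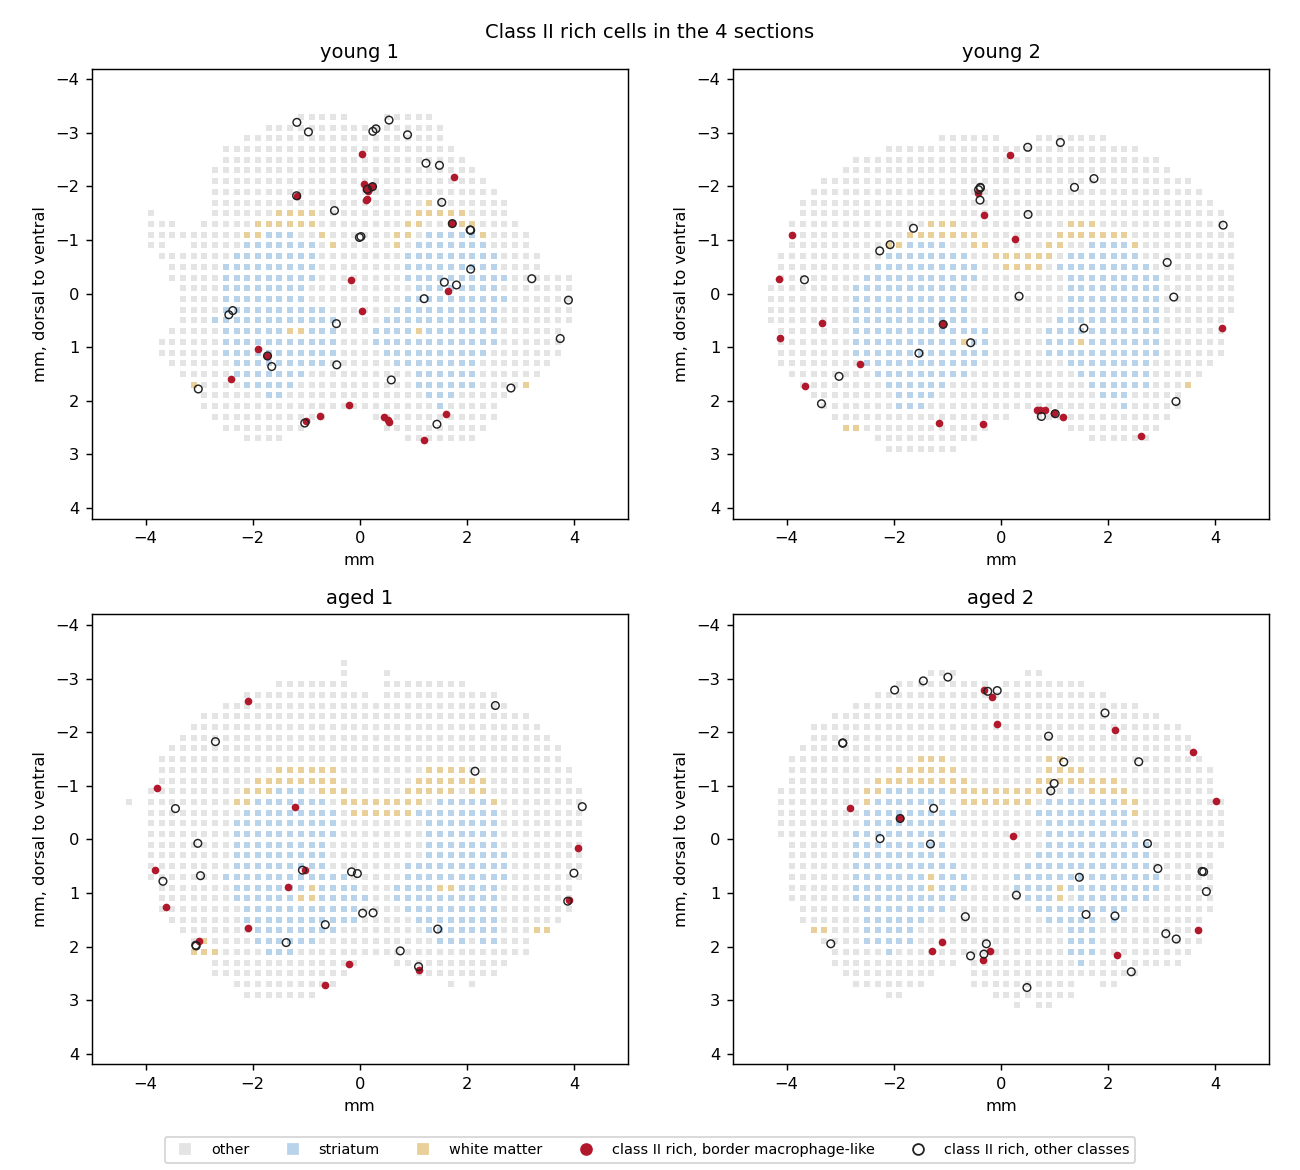
Maps of the 4 sections in mm, turned so that dorsal is up. Squares of tissue are coloured by zone (blue striatum, ochre white matter, grey other), filled points are class II rich cells of the border macrophage-like class and open circles are class II rich cells of other classes. Points lie often near the section outline and also inside the tissue, with 62 and 46 cells in the young and 36 and 50 in the aged sections.

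The change from 2 to 18 months was tested in 10 classes and in all kept cells together, which gave 54 tests of the 6 genes. None passed an adjusted p of 0.05 with edgeR, none with DESeq2 and none with limma. In all cells together, a change in the mix of cells and a change in RNA per cell cannot be told apart. With mixed cells kept, oligodendrocyte-like cells were 12.35 and 11.97% of cells in the young and 16.71 and 16.92% in the aged sections. White matter covered 1.765 and 2.09 mm2 in the young and 3.19 and 3.08 mm2 in the aged sections. Age and the part of the brain that was cut cannot be told apart here. Over all genes in the same 11 fits, 1.06% of 3481 tests passed. The share was 3.74% in oligodendrocyte-like, 3.68% in OPC-like, 1.49% in mural-like, 1.37% in astrocyte-like, 1.31% in all and 0.641% in microglia-like cells, and 0 in the other fits. At an unadjusted p under 0.05, 9 of the 54 tests passed with edgeR, 8 with DESeq2 and 6 with limma, against 10.2, 6.58 and 9.45% of all 3481 tests. B2m and H2-K1 were bright enough to be tested in all 11 fits, Tapbp and Cd74 in 9 each, and H2-T23 and H2-Eb1 in 7 each. These class-level tests were fitted on sums over cells in 2 sections per age.

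B2m passed in none of the fits with age, with estimates on 1 side of 0. Over all cells it measured 7.24 and 9.53 per 10000 in the young and 12.7 and 9.58 in the aged sections, and young section 2 and aged section 2 were nearly equal. The log2 change was 0.45 ± 0.22 (SE, edgeR adjusted p = 0.531). The estimate was above 0 in each of the 11 fits, from 0.14 to 0.75. The aged pair lay above the young pair in 8 of 12 classes, against 20.6% of all genes and classes with a transcript. The 12 classes come from the same 4 sections and are not independent, so this count is a description. In medium spiny neuron-like cells B2m measured 4.02 and 4.84 in the young and 9.51 and 5.39 in the aged sections (log2 0.75 ± 0.31, edgeR adjusted p = 0.622). This rested on aged section 1: without it the value was 0.24, and without aged section 2 it was 1.20, each in a fit with 1 aged section. In endothelial-like cells the log2 change was 0.27 ± 0.18 (edgeR adjusted p = 0.590; -0.16 on the scale of cell volume). These values are relative to the other transcripts of the cells. On the scale of cell volume the median of all genes shifted by -0.57 in all cells, and B2m then gave -0.14, above that shift but below 0. Aged section 1, the section with the fewest transcripts per cell, was the highest for B2m in all cells and in each class but the Acta2-rich cells, and the part of depth in this was not tested.

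H2-K1 did not pass in any fit. Over all cells it measured 3.58 and 3.56 in the young and 4.11 and 4.19 in the aged sections (log2 0.26 ± 0.21, edgeR adjusted p = 0.829; -0.31 on the scale of cell volume). In neuron-like cells it measured 1.35 and 1.09 in the young and 1.93 and 1.62 in the aged sections, without overlap (log2 0.59 ± 0.31, edgeR adjusted p = 0.945). Tapbp and H2-T23 did not pass either, and their estimates over all cells were below 0. Tapbp over all cells measured 2.13 and 1.87 in the young and 1.75 and 1.73 in the aged sections (log2 -0.16 ± 0.23, edgeR adjusted p = 0.956). In endothelial-like cells Tapbp measured 6.08 and 5.23 in the young and 3.48 and 3.05 in the aged sections, and the ages did not overlap (log2 -0.83 ± 0.28, edgeR adjusted p = 0.283). For Tapbp the aged pair lay below the young pair in 7 of 12 classes, against 17.4% of all genes and classes with a transcript. For H2-T23 it lay below in 5 of 12. For H2-K1, Cd74 and H2-Eb1 it lay above in 3 and below in 2 each, against 20.6 and 17.4%. Here too the classes share the sections. H2-T23 in microglia-like cells measured 2.31 and 1.60 in the young and 1.37 and 0.806 in the aged sections, from 6 to 20 transcripts per section and without overlap (log2 -1.004 ± 0.55, edgeR adjusted p = 0.388). Over all cells H2-T23 measured 1.29 and 0.791 in the young and 0.656 and 0.981 in the aged sections, with overlap (log2 -0.30 ± 0.29, edgeR adjusted p = 0.880; 0.05 without young section 1).

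**Figure D4:**
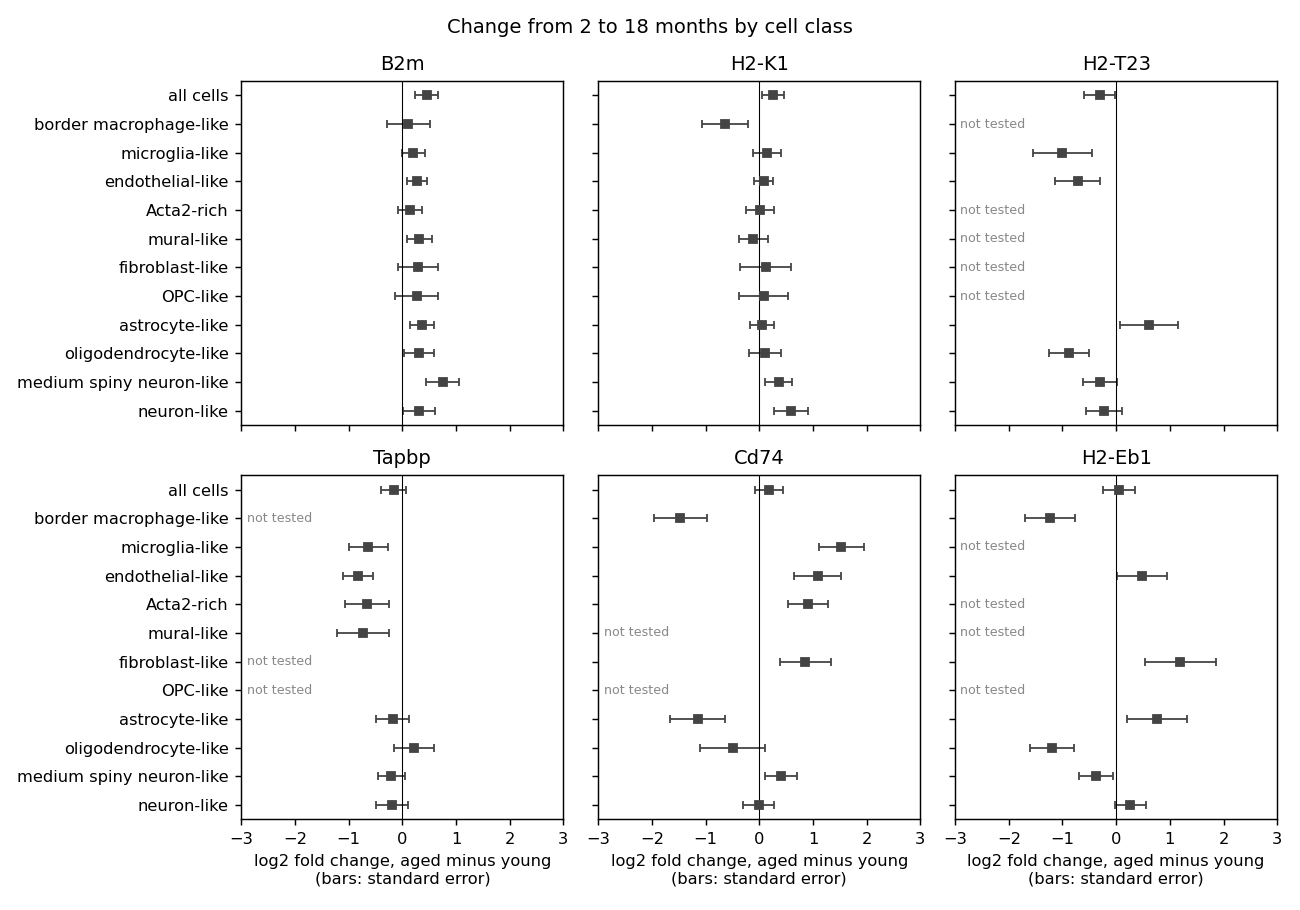
Log2 fold change from young to aged for each gene, in all cells and in 11 classes, with bars of 1 standard error from edgeR. B2m lies above 0 throughout, from 0.11 in border macrophage-like to 0.75 in medium spiny neuron-like cells, Cd74 lies furthest above 0 in microglia-like cells (1.53) and below 0 in border macrophage-like cells (-1.47), and no value passed an adjusted p of 0.05.

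Class II did not pass the test with age in any class. The Cd74 estimates had opposite signs in the 2 myeloid classes, a difference that was not tested, and H2-Eb1 was too dim in microglia-like cells to be tested. Cd74 estimates were also above 0 in endothelial-like (log2 1.09 ± 0.44 SE), Acta2-rich (0.91 ± 0.37), fibroblast-like (0.86 ± 0.47) and medium spiny neuron-like cells (0.40 ± 0.30). They were below 0 in astrocyte-like (-1.15 ± 0.51), oligodendrocyte-like (-0.49 ± 0.61) and neuron-like cells (-0.01 ± 0.29). Over all cells Cd74 measured 1.07 and 0.856 in the young and 1.02 and 1.11 in the aged sections (log2 0.18 ± 0.26, edgeR adjusted p = 0.951), and the log2 change of H2-Eb1 was 0.05 ± 0.30 (edgeR adjusted p = 0.998; -0.15 without aged section 1 and -0.02 without young section 1). On the scale of cell volume these became -0.40 and -0.54. In microglia-like cells, where Cd74 measured 3.57 and 2.56 in the young and 5.01 and 14.5 in the aged sections, the log2 change was 1.53 ± 0.42 (edgeR adjusted p = 0.151). It passed with mixed cells kept (log2 1.16, edgeR adjusted p = 0.0357). The log2 change was 2.09 without aged section 1 and 0.57 without aged section 2, each in a fit with 1 aged section. Few cells carried it: 16 and 16 microglia-like cells with Cd74 in the young and 20 and 24 in the aged sections, with 57.4% of the 108 transcripts of aged section 2 in its 3 highest cells. Without cells of 5 or more Cd74 transcripts, the level was 1.73 and 1.71 in the young and 5.01 and 3.26 in the aged sections. In microglia-like cells with no transcript of any border macrophage marker, a set chosen after seeing the data, the log2 change was 1.79 ± 0.48 (edgeR adjusted p = 0.0652). It was 0.08 without aged section 2 and 2.52 without aged section 1, each in a fit with 1 aged section. With cell volume scaling it passed (log2 1.5, edgeR adjusted p = 0.0391). All 5 border macrophage markers are at 0 there by that choice.

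In border macrophage-like cells, also tested only after seeing the data because each section held under 200 of them, Cd74 gave log2 -1.47 ± 0.50 (edgeR adjusted p = 0.395) and H2-Eb1 gave log2 -1.24 ± 0.47 (edgeR adjusted p = 0.457). Young section 1 was the highest for both genes, at 954 for Cd74, and it had 33 of 68 cells with Cd74. Other markers stood apart in that section too: B or plasma cell markers summed to 194 per 10000 there against 72.5, 110 and 61.1 in the other 3 sections, and astrocyte markers to 280 against 768, 711 and 853. Their part in these values was not tested. Without young section 1 the values were -0.39 for Cd74 and -0.72 for H2-Eb1, and with mixed cells kept they were -0.46 and -0.22 (-0.67 and -0.64 with subclusters at resolution 0.3). Without young section 2 they were -2.08 and -1.62 and passed, in a fit whose spread came from the aged sections alone. Cd74 also passed without a filter on low counts (log2 -1.52, edgeR adjusted p = 0.0295). In oligodendrocyte-like cells H2-Eb1 measured 0.596 and 0.580 in the young and 0.216 and 0.318 in the aged sections, from 12 to 27 transcripts (log2 -1.19 ± 0.41, edgeR adjusted p = 0.136). On the scale of cell volume it passed (log2 -1.72, edgeR adjusted p = 0.0331), where the median of all genes shifted by -0.55, and with mixed cells kept it was -0.35.

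Of the other pathway genes, 1 passed with age. Cxcl10, an interferon-induced chemokine gene, rose 1.95-fold over all cells (log2 0.97 ± 0.24, edgeR adjusted p = 0.0468), and the other 13 interferon response genes did not pass there. None of the 5 other antigen presentation genes or the 8 microglial activation genes passed in any class. In microglia-like cells the median log2 change was -0.15 over 4 other antigen presentation genes, -0.28 over 12 interferon response genes and -0.37 over 8 microglial activation genes, against 0.01 over all 312 genes tested.

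B2m in astrocyte-like cells and H2-K1 in oligodendrocyte-like cells were higher in white matter than in striatum. White matter and striatum were taken from the cells within 150 µm, as areas with at least 40% oligodendrocyte-like or 40% medium spiny neuron-like cells, and were compared within the same section. In astrocyte-like cells B2m measured 6.85 and 7.76 in the striatum of the young and 9.15 and 6.82 in that of the aged sections, and 10.9, 21.4, 18.6 and 18.1 in the white matter of the same sections. White matter was higher in 4 of 4 sections. The difference was 2.37-fold (log2 1.25 ± 0.19, edgeR adjusted p = 1.83e-05). In oligodendrocyte-like cells H2-K1 measured 0.837 and 1.296 in the striatum of the young and 1.36 and 1.09 in that of the aged sections, and 1.36, 2.28, 2.08 and 2.43 in white matter. The striatal values rest on 6 to 9 transcripts per section and those in white matter on 35 to 98. H2-K1 was higher in white matter in 4 of 4 sections, by 2.09-fold (log2 1.07 ± 0.22, edgeR adjusted p = 0.00496), and missed the threshold when zones needed 60% (log2 0.83, edgeR adjusted p = 0.0810). These were 2 of 10 tests of members in 3 classes, whereas of all 735 tests 35.0% passed and 17.0% passed as higher in white matter. By class, 54.9% of genes passed in astrocyte-like, 30.5% in oligodendrocyte-like and 17.4% in endothelial-like cells. Tapbp in the 3 classes and H2-T23 in oligodendrocyte-like cells did not pass.

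The other class I values were smaller. H2-K1 in astrocyte-like cells was higher in white matter in 4 of 4 sections but missed the threshold (log2 0.48 ± 0.20, edgeR adjusted p = 0.0528). It passed without aged section 1 (log2 0.58, edgeR adjusted p = 0.0379), without aged section 2 (log2 0.67, edgeR adjusted p = 0.0320) and without a filter on low counts (log2 0.52, edgeR adjusted p = 0.0412). B2m in oligodendrocyte-like cells was higher in 3 of 4 sections (log2 0.60 ± 0.21, edgeR adjusted p = 0.0555), with young section 1 the exception, and it passed without that section (log2 0.83, edgeR adjusted p = 0.00484). In endothelial-like cells B2m gave log2 0.26 ± 0.14 (edgeR adjusted p = 0.220; -0.05 on the scale of cell volume) and H2-K1 gave log2 -0.08 ± 0.17 (edgeR adjusted p = 0.823). With mixed cells kept and vascular subclusters at resolution 0.6, both endothelial-like values passed as higher in white matter (B2m log2 0.31, edgeR adjusted p = 0.0498; H2-K1 log2 0.37, edgeR adjusted p = 0.02). With mixed cells kept at the resolution of 0.3 used elsewhere, neither passed (B2m log2 0.08, edgeR adjusted p = 0.592; H2-K1 log2 -0.11, edgeR adjusted p = 0.547). Marker transcripts of neighbours also differed between zones: in astrocyte-like cells oligodendrocyte markers summed to 19.96 to 34.2 per 10000 in striatum and 50.1 to 67.5 in white matter, endothelial markers to 177 to 214 and 65.1 to 93.1, and microglia markers to 22.1 to 35.1 and 23.01 to 39.1. Their part in the B2m difference was not tested.

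Microglia-like cells were too few in the white matter of the young sections for the test, at 30 and 32 cells. There Cd74 counted 0 and 1 transcripts in the young and 14 and 34 in the aged sections, the latter among 79 and 72 microglia-like cells in all. The cells that carried Cd74 were not counted by zone. Over all zones, 20 of 910 and 24 of 916 microglia-like cells of the aged sections carried it, and the highest single cells held 4 and 32 transcripts. In the striatum the counts were 2 and 3 in the young and 4 and 28 in the aged sections, from 245 to 302 cells. Per 10000 transcripts, white matter of the aged sections held 20.8 and 46.7, against 2.05 and 12.8 in their striatum. Border macrophage markers summed there to 29.7 and 9.61 in white matter and 20.5 and 18.2 in striatum. Endothelial markers summed to 19.2 in the white matter microglia-like cells of aged section 2, which had the highest Cd74, and to 2.75, 5.19 and 2.97 in young section 1, young section 2 and aged section 1. The part of either in these counts was not tested. Of the other pathway genes, 2 of 4 antigen presentation and 2 of 6 interferon response genes passed in astrocyte-like cells, and 1 of 5 and 0 of 9 in oligodendrocyte-like cells. Ctss (log2 1.04), Lgmn (log2 0.38), Ly6e (log2 1.10) and Parp9 (log2 0.77) were higher in white matter in astrocyte-like cells, and Lgmn (log2 0.35) in oligodendrocyte-like cells, and none was lower. In endothelial-like cells none of 3 and none of 9 passed.

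**Figure D5:**
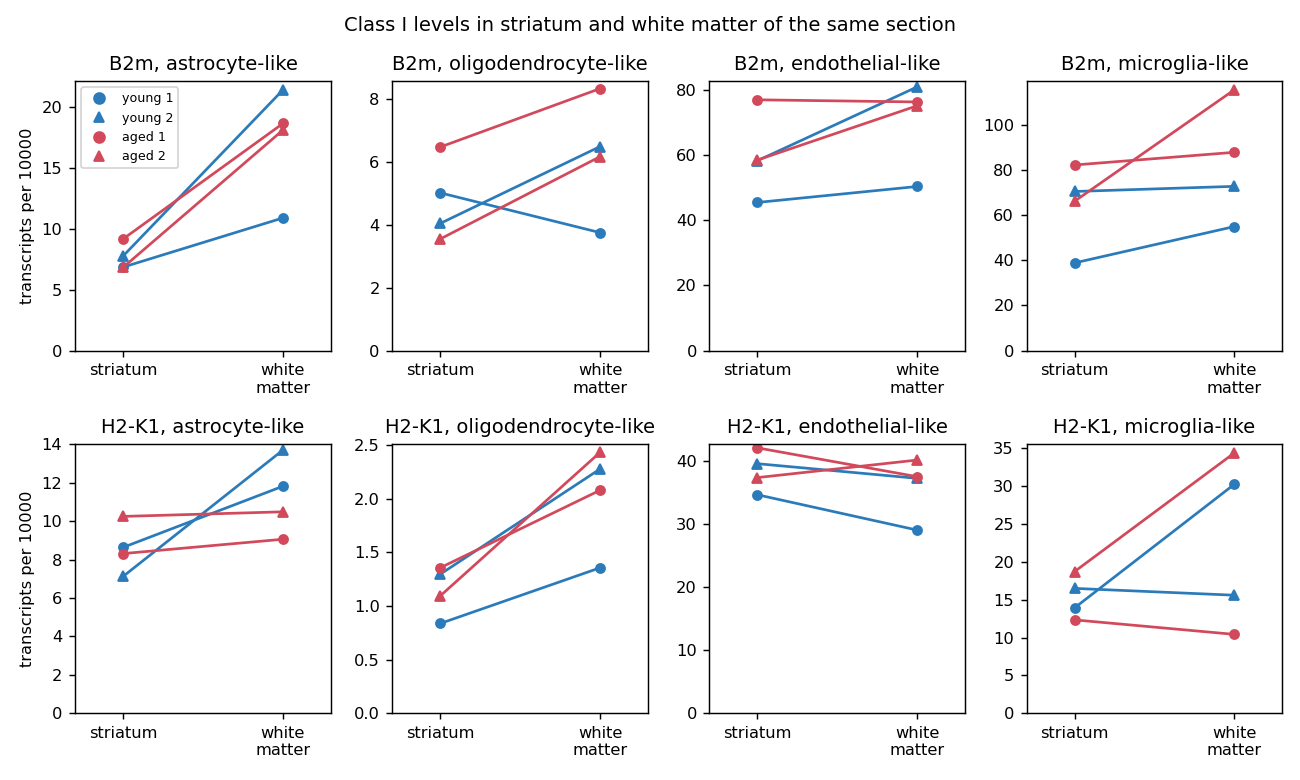
B2m (top) and H2-K1 (bottom) in transcripts per 10000, in striatum and white matter of the same section, joined by a line for each section (blue young, red aged; circles section 1, triangles section 2). B2m in astrocyte-like cells and H2-K1 in oligodendrocyte-like cells rise in 4 of 4 sections, and the microglia-like panels rest on 30 and 32 white matter cells in the young sections.

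Whether the change with age depended on position was tested as an interaction. Simulated astrocyte-like data had 200 of 383 genes changed, far more than passed here. There, changes of log2 1 were recovered in 18.8% of cases for white matter against striatum and 34.6% for dorsal against ventral. Changes of that size could be missed here. None of 12 tests of members passed for white matter against striatum, where 0 of all 822 tests passed, and none of the 12 had an unadjusted p under 0.05 with edgeR, DESeq2 or limma. None of 18 tests passed for dorsal against ventral striatum with edgeR, DESeq2 or limma, where 0.137% of all 1462 tests passed with edgeR. Of these 18, 2 had an unadjusted p under 0.05 with edgeR, none with DESeq2 and 1 with limma: Cd74 in medium spiny neuron-like cells and H2-K1 in microglia-like cells were the 2 with edgeR, named after their values were seen. With mixed cells kept at resolution 0.3, 1 of 39 dorsal against ventral tests passed, that of Cd74 in endothelial-like cells.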

How the data were processed

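MERFISH counts of 383 genes came from 4 striatal sections. Per the paper's methods, transcripts were decoded with MERLIN. The deposited values are whole-number counts per segmented cell whose totals differ between sections, and were taken as raw, beside each cell's volume, a signal of cell size in µm3, and its position. A deposited table of mean counts per cell was not used. The 6 genes, the lists and the tests were chosen with earlier results of these data known. Groups follow the sample titles.

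Cells with at least 10 genes and a volume of at least 50 µm3 were kept. Clusters (15 components, 20 neighbours, Louvain resolution 0.08, igraph 0.11.9) were built without the 6 genes and 19 genes of the antigen presentation and interferon lists, and named from marker lists. No doublet caller was run, and mixed cells (at least 3 markers of another family) were left out. Vascular-like cells were subclustered at resolution 0.3, or 0.6 where mixed cells were kept, and the latter was also run at 0.3. The border macrophage-like class came from the vascular cluster, and not from the microglia cluster, as the design had assumed. Levels are transcripts per 10000 of a class. Counts summed per class and section were tested with edgeR 4.0.16 (quasi-likelihood, TMM, filterByExpr, R 4.3.3), where a class held at least 200 cells per section, or 50 per zone, with Benjamini-Hochberg adjustment over all genes tested and a threshold of 0.05. Pathway genes past it were named, at most 5 in each direction, and likeness took the 3 best Pearson correlations, of which 1 is not reported here. White matter and dorsal tests had section as a block. DESeq2 1.42.0 and limma 3.58.1 (pseudocount 0.1) were alternatives. Exact binomial intervals (95%) and floors of 3 counts cover counting error only.

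The test was checked on simulated data, with a fixed spread between sections that was not taken from these data. In the simulation 200 of the 383 genes were changed, whereas 1.06% of the age tests in these data passed. With so many changed genes the adjustment is more lenient, so the shares recovered may be too high for these data. Changes of log2 1 were recovered in 77% of cases with age (microglia-like), 83% by zone (astrocyte-like) and 63.4% between the myeloid classes. In astrocyte-like cells the interactions with age recovered 18.8% (white matter against striatum) and 34.6% (dorsal against ventral), and 78.5 and 76.4% at log2 2. Unchanged genes were called in 0 to 5.08% of cases. Differences between replicates 1 and 2 in the young and in the aged sections correlated at -0.262 over genes in all cells. With 1 difference per age, the sign turns when the pairing is crossed. The value thus cannot decide whether the numbers pair the sections.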

Additional observations from a re-analysis of the deposited data

How the results depend on the processing

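Of the checks of single genes, 277 kept direction and side of the threshold, 20 newly passed, 4 no longer passed and 11 changed sign. The count of members called with age was 0. With 1 section left out, 1 age has no replicate, so such a fit takes its spread from the other age alone. It became 1 with cell volume scaling (H2-Eb1, oligodendrocyte-like), 1 with mixed cells kept (Cd74, microglia-like; 1 at either subcluster resolution) and 0 to 1 when 1 section was left out. With the replicate block, 0 members were called, and 8 of all 3481 tests passed in place of 37. The crossed pairing (young 1 with aged 2), chosen after seeing the data, gave 2 (B2m in medium spiny neuron-like cells, Cd74 in microglia-like cells). Over all genes, the age calls numbered 24 with DESeq2, 60 at resolution 0.3 and 7 to 31 with 1 section left out. The zone count of 2 of 10 tests in 3 classes became 5 of 26 in 6 classes with mixed cells kept, 1 of 4 in 2 classes at 60% and 2 to 3 of 10 or 11 with 1 section left out. Keeping mixed cells also raised the subcluster resolution of vascular-like cells from 0.3 to 0.6. With mixed cells kept at 0.3, an alternative chosen after seeing the data, the zone count was 3 of 25, the dorsal against ventral count 1 of 39 in place of 0 of 18 (Cd74, endothelial-like) and the myeloid count 6 of 6 in place of 4 of 5. With cell volume scaling, values over all cells turned to -0.14 (B2m), -0.31 (H2-K1), -0.40 (Cd74) and -0.54 (H2-Eb1), B2m in endothelial-like cells to -0.16 with age and -0.05 by zone. H2-K1 in endothelial-like cells turned to 0.37 by zone with mixed cells kept at 0.6, but was -0.11 at 0.3. With 1 section left out, H2-T23 over all cells ran from -0.62 to 0.05 (positive without young section 1), H2-Eb1 over all cells from -0.15 (without aged section 1; -0.02 without young section 1) to 0.21, and Tapbp between the myeloid classes from -0.11 (without young section 1) to 0.49. Levels in border macrophage-like over neuron-like cells were lower with mixed cells kept at 0.6: 30.1 became 12.2 (B2m), 82.1 became 19.8 (H2-K1), 3.89 became 1.26 (H2-T23), 3.61 became 1.78 (Tapbp), 709 became 117 (Cd74) and 324 became 52.5 (H2-Eb1). At 0.3 they were 13.2, 26.3, 1.82, 2.29, 40.1 and 18.7 in the same order, and per cell volume 10.4, 28.2, 1.31, 1.24, 241 and 109. The aged minus young share of microglia-like cells with Cd74 was 0.50 percentage points and became -0.431 with mixed cells kept. That for H2-Eb1 was -0.0384, and ran from -0.201 to 0.124 with 1 section left out. The cause of these shifts was not tested. Dim members (H2-T23, Tapbp, H2-Eb1) and the few white matter microglia limit what the depth can show, and 2 sections per age limit every test of age.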
